A study of Mus musculus with 24 samples.

Results

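Stem-like CD8+ T cells were defined here as gated CD8+ T cells that carried a Pdcd1 and a Tcf7 transcript together, without Havcr2, Mki67 or more than 1 Ly6c2 transcript. Pdcd1 encodes the inhibitory receptor PD-1, Tcf7 encodes the transcription factor TCF1, and Havcr2 encodes the terminal exhaustion receptor TIM-3. In chronic infection and in tumors, PD-1+TCF1+ CD8+ T cells are known as a self-renewing reserve that gives rise to more differentiated, TIM-3+ exhausted cells, and that proliferates when PD-1 is blocked. Such cells are known for the chemokine Xcl1, which attracts cross-presenting dendritic cells, and for the surface receptor Slamf6, and they carry few granzymes.

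Of 12847 gated CD8+ T cells, 146 met the definition. The gate took barcodes with at least 1000 unique molecular identifiers (UMIs, each counting 1 captured transcript) and under 10% mitochondrial UMIs. It then required a Cd3d, Cd3e or Cd3g UMI, a Cd8a or Cd8b1 UMI and no Cd4 UMI, Pdcd1 and Tcf7 at 1 or more, Havcr2 and Mki67 at 0, and Ly6c2 and C1qb at 1 or less. In all, 120912 of 144994 barcodes passed the depth limits, and 7132 gated CD8+ T cells held a Pdcd1 UMI. Members were chosen by these measured values, so the levels of the gate genes are a description and were left out of every test.

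The cells came from Panc02 tumors, a mouse pancreatic cancer line implanted under the skin of wild-type male C57BL/6 mice of 6 to 7 weeks. Mice received PancVAX, a peptide vaccine against Panc02 neoantigens given with the adjuvant AddaVax and a STING agonist (on days 12 and 19, at 50 µg, a dose that the study's methods give for each peptide), so that an effect of PancVAX is one of peptides and adjuvants together. Anti-PD-1 (100 µg, repeated from day 12) and anti-CTLA-4 (100 µg on days 15 and 22) were given alone, together, and with PancVAX, which made 8 treatments with the Isotype Control group that received isotype antibodies and no vaccine peptides, and tumors were taken on day 38. Tumors were pooled by treatment and each treatment gave 2 single-cell RNA libraries, 1 of whole tumor and 1 of cells enriched on Percoll, which were also the 2 sequencing batches. The 2 libraries of a treatment were added into 1 treatment pool for comparisons between treatments; whether they came from the same mice was not given, and p-values measure the spread between pools or libraries, not between mice. Library totals ran from 77132398 to 176233225 UMIs. Of the barcodes, 25109 (17.3%) occurred in more than 1 library, which included 24 of the 146 members, but no barcode was shared between members.

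The 146 members held a median of 5178 UMIs (1223 to 46844) and 1782 genes. Pdcd1 was at a median of 2 UMIs (1 to 13) and Tcf7 at a median of 1 UMI (1 to 4), and 98 members held exactly 1 Tcf7 UMI. At 2 or more UMIs of both genes, 30 members remained. Just outside the limits were 20 cells with 2 Ly6c2 UMIs, 27 with 1 Mki67 UMI, 3 with 1 Havcr2 UMI and 3 with 2 C1qb UMIs. Doublets were not called; 62.3% of members held at least 2 UMIs of macrophage, neutrophil, B cell or tumor and stroma markers, against 58.1% of exhausted-gate cells.

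The label rests on Xcl1 and Slamf6, the genes among its markers that the gate did not use. Other gates of the same CD8+ T cells served as references. The exhausted gate (Pdcd1 and Havcr2 present, Tcf7 absent) and the members shared the limits on Mki67, Ly6c2 and C1qb, and it held 637 cells, and the Ly6c2 gate (2 or more Ly6c2 UMIs, no Pdcd1, Havcr2 or Mki67) held 3073 cells. Ly6c2 is carried by memory and effector CD8+ T cells. To compare shares of cells at equal depth, each cell was also thinned to 2000 UMIs, which left out 12 members, 21 exhausted-gate and 398 Ly6c2-gate cells.

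Xcl1 was detected in 61.0% of members, 23.1% of exhausted-gate cells and 15.8% of Ly6c2-gate cells. After thinning the shares were 61.2%, 17.7% and 11.0%. Only 0.525% of macrophages (median of 7420 UMIs) held an Xcl1 UMI, so the shares in T cells were above that background. Slamf6 was less frequent in members than Xcl1. It was detected in 12.3% of members (6.72% thinned) and 0.785% of exhausted-gate cells (0.325% thinned), and in 6.25% of Ly6c2-gate cells (3.96% thinned). It was also detected in 0.608% of neutrophils (median of 1642 UMIs), 0.490% of tumor and stroma cells (median of 20078 UMIs) and 15.9% of macrophages. Over all members, the share with Xcl1 was thus above that of both references, while Slamf6 was found in few members and at a higher share in macrophages. Xcl1 was detected in 7 of 8 members with Isotype Control, 14 of 16 with anti-PD-1, 13 of 18 with anti-CTLA-4 and 23 of 33 with both antibodies. With PancVAX added to each it was detected in 6 of 15, 14 of 28, 5 of 13 and 7 of 15. The summed level of Xcl1 against the exhausted gate, given below, was not called.

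Other genes differed between the gates in their own ways. Ccr7, the receptor that guides T cells to lymph nodes, was detected in 25.3% of members (20.1% thinned), 6.28% of exhausted-gate cells (4.22% thinned) and 15.4% of Ly6c2-gate cells (10.8% thinned). Gzmb, a cytotoxic granule protease, was detected in 23.3% of members (11.9% thinned) against 73.2% of exhausted-gate cells (57.5% thinned) and 73.8% of Ly6c2-gate cells (63.5% thinned). By pool, Gzmb was detected in 0 of 8 members with Isotype Control, 1 of 16 with anti-PD-1, 2 of 18 with anti-CTLA-4 and 4 of 33 with both antibodies. With PancVAX added to each it was detected in 8 of 15, 7 of 28, 6 of 13 and 6 of 15, not at equal depth. Lag3, an inhibitory receptor, was detected in 63.0% of members (35.1% thinned), 87.9% of exhausted-gate cells (54.2% thinned) and 9.57% of Ly6c2-gate cells (5.91% thinned). Lef1, a partner of TCF1 in naive T cells, was detected in 7.53% of members (4.48% thinned) against 24.9% of Ly6c2-gate cells (14.6% thinned). Il7r, a cytokine receptor of memory T cells, was detected in 47.9% of members (25.4% thinned), 43.3% of exhausted-gate cells (19.3% thinned) and 45.2% of Ly6c2-gate cells (32.0% thinned). As background, 27.7% of macrophages held a Lag3 UMI, and 0.0701% to 3.14% held one of Lef1, Ccr7, Gzmb or Il7r, so that the Lag3 share of the Ly6c2 gate lay below that of macrophages.

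The first question was whether treatment changed how many gated CD8+ T cells were stem-like. Members were 0.889% of gated CD8+ T cells in the Isotype Control pool (8 of 900, exact 95% interval 0.385% to 1.74%), 1.43% with anti-PD-1 (16 of 1120), 1.30% with anti-CTLA-4 (18 of 1387) and 2.23% with both antibodies (33 of 1481, 1.54% to 3.12%). They were 1.06% with PancVAX (15 of 1420), 1.02% with PancVAX and anti-PD-1 (28 of 2737), 0.782% with PancVAX and anti-CTLA-4 (13 of 1662) and 0.701% with all 3 agents (15 of 2140, 0.393% to 1.15%). With this gate the share was highest with both antibodies and lowest when PancVAX was added to them. The intervals of those 2 pools, picked as the extremes of the 8, did not overlap. Without the Ly6c2 limit the same 2 pools stood at 3.11% and 3.60%, in the opposite order. Intervals cover counting error only. The intervals of the 2 libraries of a treatment overlapped except in the Isotype Control group, where whole tumor gave 0 of 560 cells (exact interval up to 0.657%; 3 counts of the total, the limit that a count of 0 allows, are 0.536%) and Percoll gave 8 of 340 (2.35%, from 1.02%).

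**Figure D1:**
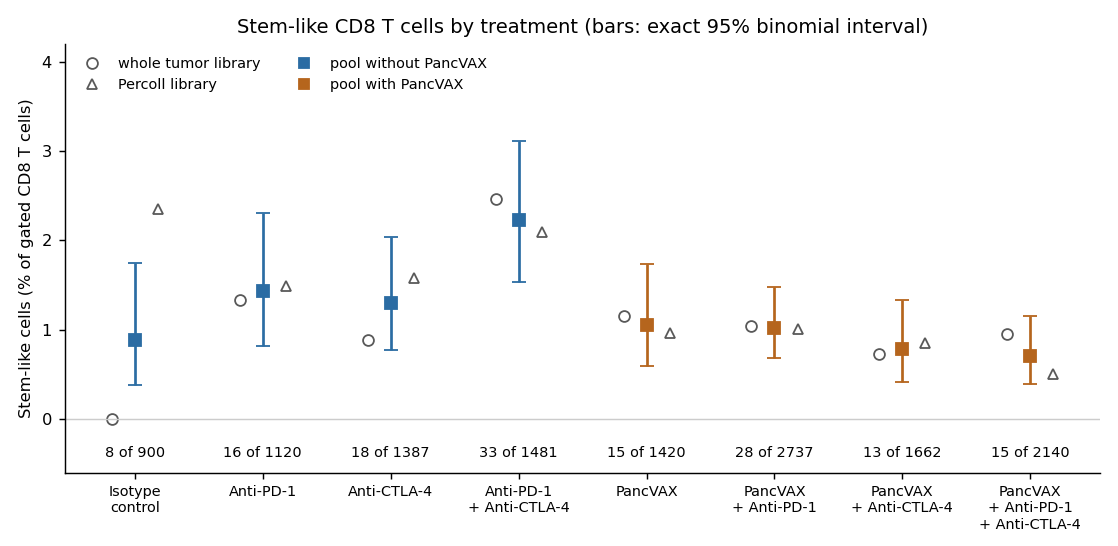
Stem-like cells as a percent of gated CD8+ T cells (vertical axis) in the 8 treatment pools (squares, with exact 95% binomial intervals; blue without PancVAX, orange with) and in their whole tumor (circles) and Percoll (triangles) libraries. The 4 pools with PancVAX sit between 0.701% and 1.06%, and the pool of both antibodies sits at 2.23%.

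In an exact two-sided permutation test over the 8 pools, the share with PancVAX (0.891% ± 0.176, SD, n = 4 pools) was not distinguishable from that without (1.46% ± 0.561, n = 4), with a difference of -0.570 points (p = 0.0857, adjusted p = 0.286 over 5 tests; the smallest p the design allows was 0.0286). Anti-PD-1 went with a difference of 0.339 points (1.35% ± 0.660 against 1.01% ± 0.225, exact permutation p = 0.333, adjusted p = 0.556). For anti-CTLA-4 the difference was 0.153 points (1.25% ± 0.702 against 1.10% ± 0.231, exact permutation p = 0.722, adjusted p = 0.722). For the antibodies, whose labels were permuted within the PancVAX arms, the smallest p possible was 0.0556. Within the batches, the PancVAX difference was -0.200 points in the whole tumor libraries (0.971% against 1.17%, exact permutation p = 0.686) and -1.05 points in the Percoll libraries (0.832% against 1.88%, exact permutation p = 0.0286). Those of anti-PD-1 and anti-CTLA-4 were 0.756 and 0.377 points in whole tumor and turned to -0.163 and -0.196 points in Percoll. Without the Isotype Control pool the PancVAX difference was -0.761 points (exact permutation p = 0.0286, unadjusted). With any 1 other pool left out the exact permutation p was 0.114 to 0.171.

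The choice of denominator mattered. Among Pdcd1+ cells, members were 1.33%, 2.16%, 1.99% and 3.04% in the pools of Isotype Control, anti-PD-1, anti-CTLA-4 and both antibodies, and 2.27%, 2.34%, 1.63% and 1.31% in the same order with PancVAX added. The difference with PancVAX was -0.241 points (1.89% ± 0.499 against 2.13% ± 0.705, exact permutation p = 0.629, adjusted p = 0.722). Per 100 exhausted-gate cells there were 10.4, 14.3, 18.9 and 28.7 members without PancVAX and 27.3, 37.8, 27.7 and 24.2 with it, in the same order. That ratio was 11.2 higher with PancVAX (29.2 ± 5.94 against 18.1 ± 7.89, exact permutation p = 0.114, adjusted p = 0.286). Neither difference passed the test over all 8 pools, although the ratio did without the pool of both antibodies (14.7 higher, exact permutation p = 0.0286, unadjusted). For the ratio, the exact permutation p was 0.114 to 0.2 with any 1 other pool left out. In whole tumor and Percoll libraries alone these differences were 0.339 and -0.849 points among Pdcd1+ cells, and 20.5 and 3.06 per 100 exhausted-gate cells.

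Several steps of the gate kept different shares of cells with and without PancVAX, the limit on Ly6c2 among them. Pdcd1 at 1 or more kept 47.7% of gated CD8+ T cells with PancVAX and 68.2% without. Tcf7 at 1 or more then kept 12.0% and 5.52%. Pdcd1 and Tcf7 were found together in 639 gated CD8+ T cells, 455 of them in the 4 pools with PancVAX and 184 in the 4 without. With Havcr2 at 0 there were 438 and 174. Of those, the Ly6c2 limit kept 107 cells (24.4%) with PancVAX and 119 cells (68.4%) without, and Mki67 at 0 then kept 66.4% and 63.0%, which gave 71 and 75 members. These are numbers of cells, out of 7959 gated CD8+ T cells with PancVAX and 4888 without.

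Without the Ly6c2 limit the gate took 4.01% of CD8+ T cells with PancVAX and 2.33% without, a difference of 1.68 points in the opposite direction (exact permutation p = 0.0286, the smallest possible). Under the same change, which for the ratio also applied to the exhausted gate, the difference among Pdcd1+ cells was 5.02 points (8.43% against 3.41%, exact permutation p = 0.0286) and that per 100 exhausted-gate cells was 68.3 (92.9 against 24.5, exact permutation p = 0.0286). Depth also differed: the median of gated CD8+ T cells was 3776 to 3886 UMIs in the pools with PancVAX and 4969 to 6068 in those without. With each cell thinned to 1000 UMIs before gating, the difference in share of CD8+ T cells was 0.214 points (exact permutation p = 0.2). Thinning also removed UMIs of Ly6c2, Havcr2, Mki67, Cd4 and C1qb, which loosened the upper limits of the gate. The parts of depth and of looser limits in this change were not tested.

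**Figure D2:**
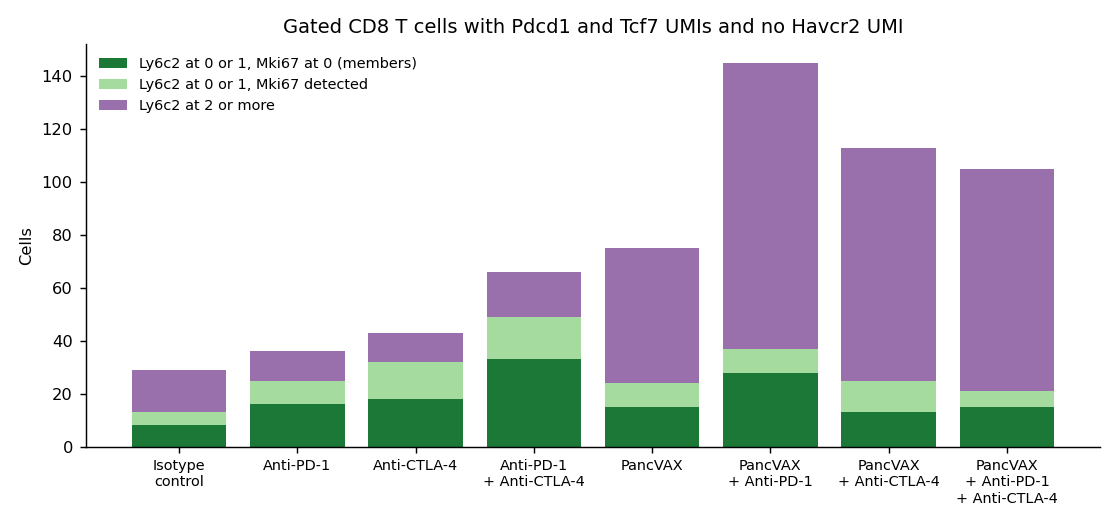
Number of gated CD8+ T cells (vertical axis) with Pdcd1 and Tcf7 UMIs and no Havcr2 UMI in each treatment pool, split into members (dark green), cells at the Ly6c2 limit or below with Mki67 detected (light green) and cells with 2 or more Ly6c2 UMIs (purple). The pools with PancVAX hold more double-positive cells (438 against 174 in all), and the Ly6c2 limit keeps 24.4% of them against 68.4% without PancVAX.

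To compare genes, UMIs were summed over members and over exhausted-gate cells within each library that held at least 10 of both. These were 6 libraries: whole tumor and Percoll of PancVAX with anti-PD-1, whole tumor and Percoll of both antibodies, Percoll of anti-CTLA-4 and Percoll of anti-PD-1. Isotype Control, PancVAX alone, PancVAX with anti-CTLA-4 and PancVAX with both antibodies are therefore not represented. Libraries of the same treatment may hold the same mice, so the 6 libraries are not known to be independent. Levels are given as CPM, the UMIs of a gene scaled to the TMM-corrected UMIs of all tested genes in a sum, and a gene was called at an adjusted p under 0.05 (edgeR quasi-likelihood test with library as a block, Benjamini-Hochberg adjustment over all genes) and a log2 difference beyond 0.5. Of 2722 genes, 75 (2.76%) were called, 13 higher (0.478%) and 62 lower (2.28%) in members, and 421 had an unadjusted p under 0.05.

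In the libraries of this fit, which left out most treatments with PancVAX, cytotoxic genes were lower in members. Of 28 cytotoxic and effector genes listed, 21 were tested, 15 were lower and 0 were higher, with a median log2 difference of -1.80 against 0.03 over all genes. Gzmb stood at 0 to 76.7 CPM in members (median 41.2) and at 782 to 2505 CPM in exhausted-gate cells (median 1923), from 25 and 4263 UMIs in all. The groups did not overlap, and the log2 difference was -5.52 ± 0.27 (SE; adjusted p = 1.59e-06, edgeR). Prf1, the pore-forming protein that lets granzymes into a target, stood at 0 to 66.6 CPM against 235 to 464 CPM (-4.10 ± 0.39). Gzma, a granzyme of another cleavage specificity, stood at a median of 4.37 CPM against 3940 CPM (-5.61 ± 0.78), with 1 library of members, PancVAX with anti-PD-1 whole tumor, at 584 CPM and the others at 200 or below. Gzmc, Gzmd, Gzme and Gzmf, granzymes of highly activated killer cells, differed by -6.18, -5.16, -4.57 and -5.09 on the log2 scale; they are close paralogs, so reads may be divided among them.

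Of 14 cytokines and chemokines of T cells listed, 5 were tested, 4 were lower and 0 were higher, with a median log2 difference of -1.80; the other was Xcl1, given with the stem and memory genes. Ccl4, a chemokine released by activated T cells, was at 6.06 to 137 CPM in members against 662 to 1688 CPM (log2 difference -4.37 ± 0.43, no overlap). Ccl3, its close relative, differed by -3.52, and Ifng, the cytokine interferon-γ, by -1.62 with overlapping groups. Ccl5, a chemokine of effector and memory T cells, was at 114 to 3880 CPM against 1514 to 5017 CPM, overlapped, and differed by -1.80 (edgeR with Benjamini-Hochberg, adjusted p = 0.0437). Nkg7 (-0.94), a gene of cytotoxic granule release, was also lower. Markers of other cell types also differed in summed level, given here and for the Ly6c2 gate as CPM of all UMIs of the cells in the 8 pools. The 5 NK cell markers were at 111 CPM in members (26.5 to 428 by pool) and 407 CPM in exhausted-gate cells (261 to 491). The 7 tumor or stroma markers were at 1023 CPM (8.76 to 3222) and 496 CPM (104 to 879), with 2 or more UMIs in 14.4% and 13.3% of cells. The 4 gamma-delta T cell markers were at 41.0 CPM (0 to 149) and 8.05 CPM (0 to 14.2), with 2 or more UMIs in 5.48% and 1.57% of cells and Cd163l1 at 0 in both gates. B cell markers were at 52.6 and 26.9 CPM (9.59% and 4.08% of cells), neutrophil markers at 49.9 and 109 CPM and macrophage markers at 471 and 707 CPM in members and exhausted-gate cells. The part of all these markers in the results was not tested.

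Of 20 exhaustion and residency genes, 15 were tested, 5 were lower and 1 was higher, with a median log2 difference of -0.75. Entpd1, the ectonucleotidase CD39 of terminally exhausted cells, was at 11.4 to 52.4 CPM against 64.7 to 134 CPM (-2.07 ± 0.30). Cxcr6, a chemokine receptor of tissue-resident T cells, was at 32.7 to 347 CPM against 455 to 628 CPM (-2.06 ± 0.31). Id2, a transcriptional regulator that favors effector differentiation, was at 160 to 503 CPM against 754 to 1144 CPM (-1.30 ± 0.19). These 3 genes lay lower in members without overlap, as did 2.79% of all tested genes; they are named from the called genes, so nothing is read from their number. Rgs16 (-1.40) and Nr4a2 (-0.67) were the other lower genes, and Cd160 (0.97) was higher. Members were not without exhaustion genes: Lag3 was at 172 to 408 CPM against 368 to 715 CPM and did not pass (-0.88, edgeR with Benjamini-Hochberg, adjusted p = 0.0705), and Tox, the transcription factor that establishes exhaustion, was at 114 to 278 CPM against 149 to 254 CPM (0.08, adjusted p = 0.878).

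Few genes were higher in members. Of 28 stem and memory genes, 15 were tested, 2 were higher and 1 (Icos, -0.96) was lower, with a median of 0.39. Emb, the membrane glycoprotein embigin, was at 166 to 477 CPM (median 224) in members and at 47.0 to 116 CPM (median 71.1) in exhausted-gate cells, without overlap, as for 0.551% of all genes in this direction (1.82 ± 0.19, edgeR with Benjamini-Hochberg, adjusted p = 0.000873). Ccr7 was at 13.3 to 641 CPM against 0 to 178 CPM, higher in 6 of 6 libraries although the ranges overlapped (2.74 ± 0.39, edgeR adjusted p = 0.00337). Ccr8 (1.66), Sesn3 (1.30), Hmgn1 (1.29), Slc29a1 (1.19), Itpkb (1.15) and Zfp36l1 (0.99) were the largest of the other increases. Xcl1 was at 458 to 3023 CPM (median 1367) against 211 to 873 CPM (median 367) and was higher in 6 of 6 libraries, but was not called (1.82 ± 0.44, adjusted p = 0.0558 in edgeR after Benjamini-Hochberg). It passed with DESeq2 (adjusted p = 0.00395). With 1 library left out, the edgeR adjusted p of Xcl1 was 0.0302 to 0.154. It was under 0.05 only without the PancVAX with anti-PD-1 whole tumor library. No early activation gene (15 tested), interferon-stimulated gene (6 tested) or cell cycle gene (7 tested) was called. Cells with an Mki67 UMI were left out of both gates, which limited how far the cell cycle genes could differ.

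The call count was 41 without the both-antibody whole tumor library, 43 without the PancVAX with anti-PD-1 Percoll library and 44 without the both-antibody Percoll library. Without cells holding 2 or more UMIs of other cell types it was 43 of 801 genes tested. Gzma to Gzmf, Prf1, Ccl3, Ccl4, Cxcr6, Entpd1, Id2, Nkg7, S100a4 and Emb passed in every alternative that tested them. Icos was called in 2 of 12 alternatives, Slc29a1 in 3 of 10, Nr4a2 in 4 of 12, Ccl5 in 5 of 12 and Cd160 in 6 of 11.

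Against the Ly6c2 gate, in the same 6 libraries and with the same member sums, 154 of 2827 genes (5.45%) were called, 57 higher (2.02%) and 97 lower (3.43%) in members. Both comparisons share the member sums and are not independent of each other. Tox, Lag3 and Xcl1 were higher and Gzmb, Ccl5 and Lef1 lower in members than in Ly6c2-gate cells. Without the both-antibody Percoll library 80 genes were called, and without cells holding 2 or more UMIs of other cell types 22 of 689 tested.

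Of 20 exhaustion and residency genes, 13 were tested against the Ly6c2 gate, 9 were higher and 0 lower, with a median log2 difference of 1.45 against -0.01 over all genes. Tox was at 110 to 260 CPM in members (median 205) and at 14.1 to 62.7 CPM in Ly6c2-gate cells (median 24.7), with no overlap (2.83 ± 0.31, edgeR with Benjamini-Hochberg, adjusted p = 0.000127). Lag3 was at 164 to 383 CPM against 26 to 74 CPM (2.70 ± 0.25), and Tnfrsf9, the costimulatory receptor 4-1BB induced by antigen, at 186 to 705 CPM against 37.3 to 80.7 CPM (2.85 ± 0.26). These 3 genes and Rgs16 lay higher in members without overlap, as did 1.24% of all genes; they too are named from the called genes. The other higher genes of the list were Rgs16 (2.16), Ctla4 (1.86), Cd160 (1.49), Tigit (1.45), Nr4a2 (1.12) and Bhlhe40 (0.96). Ctla4, Cd160 and Tigit are inhibitory receptors, so that members held several of them above the level of the Ly6c2 gate. The gates themselves were split by inhibitory receptors, since members had to hold Pdcd1 and Ly6c2-gate cells had to lack Pdcd1 and Havcr2. How far that choice set the differences in this list was not tested.

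Tnfrsf4, the costimulatory receptor OX40, gave the largest increase, with a median of 11.1 CPM in Ly6c2-gate cells and 192 CPM in members and no overlap (4.09 ± 0.27). Ikzf2, the transcription factor Helios, differed by 2.20 and Irf8 by 2.14. Tnfrsf4 and Ikzf2 were also on the list of regulatory T cell markers, whose summed level was 371 CPM in members and 52.3 CPM in the Ly6c2 gate; Foxp3, its defining gene, was at 0 in members. Gamma-delta T cell markers were at 41.0 and 7.19 CPM, neutrophil markers at 49.9 and 196 CPM and macrophage markers at 471 and 783 CPM in the same order, and the part of these markers in the results was not tested. Xcl1 was at 438 to 2862 CPM against 41.5 to 614 CPM (2.66 ± 0.32), higher in 6 of 6 libraries.

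The stem and memory genes differed in both directions. Of 28 listed, 20 were tested against the Ly6c2 gate, 3 were higher (Xcl1, Traf1 at 0.66 and Rel at 1.05) and 5 lower, with a median of -0.31. Ccr7 (1.08) and Emb (-0.34), both higher in members than in the exhausted gate, were not called here (edgeR with Benjamini-Hochberg, adjusted p = 0.385 and 0.307). Lef1 was at 0 to 11.0 CPM in members against 68.5 to 162 CPM (-4.53 ± 0.48). S1pr1, the receptor that lets T cells leave tissue, was at 0 to 49.6 CPM against 85.1 to 202 CPM (-3.30 ± 0.50), and Klf2, the transcription factor that drives S1pr1, at 61.3 to 289 CPM against 627 to 1317 CPM (-2.45 ± 0.29). Satb1 (-2.80) and Cxcr3 (-2.28), a chromatin organizer and a chemokine receptor of interferon-driven recruitment, were the others. Of the 20 genes tested, these 5 lay lower in members without overlap, as did 2.51% of all genes.

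Among 15 tested cytotoxic and effector genes, 0 were higher and 5 lower, with a median of -0.39. Gzmb was at 0 to 72.3 CPM against 355 to 1368 CPM (-4.47 ± 0.23, edgeR with Benjamini-Hochberg, adjusted p = 1.27e-07). Ccl5 was at 107 to 3713 CPM against 3770 to 19297 CPM (-3.09 ± 0.32). Ccl4 (-2.64), Ifitm1 (-1.31) and Fasl (-1.10), the ligand of the death receptor Fas, were the others. Members could hold at most 1 UMI of Ly6c2, a gene carried by effector cells, and Ly6c2-gate cells had to hold 2 or more. How far that split set the differences in this list was not tested. The interferon-stimulated genes Irf7 (-1.58) and Isg15 (-1.15) were lower, 2 of 9 tested, as were 3 of 15 early activation genes (Cd69, Dusp2 and Ier2) while Fosl2 was higher (0.92). Of 33 called genes followed through the alternatives, 19 were called in every alternative that tested them, Tox, Lag3, Tnfrsf4, Tnfrsf9, Xcl1, Lef1, S1pr1, Klf2, Satb1, Cxcr3, Gzmb, Ccl4 and Ccl5 among them. Traf1 was called in 1 of 11 alternatives, Fasl in 3 of 11, Ifitm1 in 4 of 11, Cd160 in 5 of 11, and Isg15 and Ier2 in 5 of 12.

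**Figure D3:**
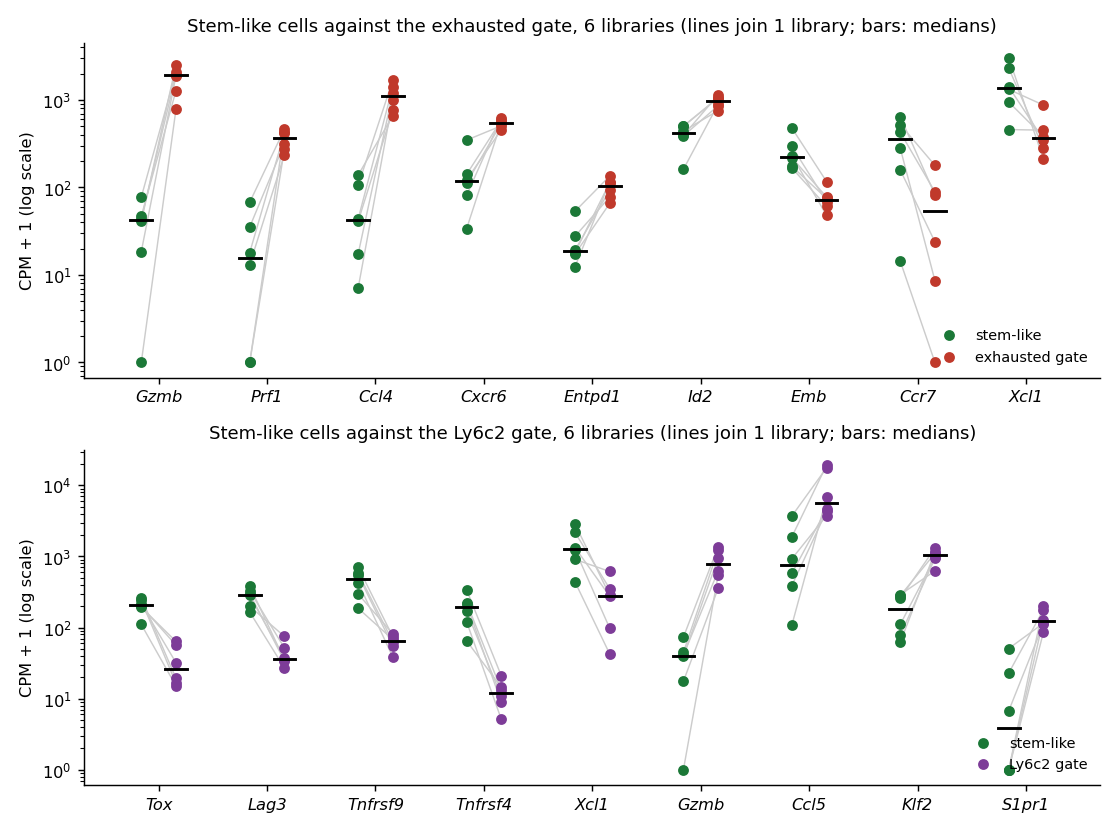
Levels in CPM + 1 (vertical axes, log scale) of selected genes in the summed members (green) and in the exhausted gate (red, top) or the Ly6c2 gate (purple, bottom) of 6 libraries; gray lines join the 2 sums of 1 library and black bars are medians. Gzmb is at most 76.7 CPM in members of each of these 6 libraries and at least 355 CPM in both references, and Tox and Lag3 are above the Ly6c2 gate without overlap.

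Whether treatment changed the members themselves was tested on the 8 treatment pools, in 1 fit of 1567 genes with a term for the vaccine and 1 for each antibody. With PancVAX 1 gene (0.0638%) was called, Ccl5. It stood at 304, 109, 449 and 936 CPM in the pools of Isotype Control, anti-PD-1, anti-CTLA-4 and both antibodies, and at 4911, 3053, 13831 and 4471 CPM when PancVAX was added to each. The levels without PancVAX rested largely on single members: 1 cell held 13 of 17 Ccl5 UMIs, 6 of 10, 27 of 55 and 140 of 207 in the same order, against 68 of 346, 131 of 574, 115 of 611 and 106 of 403 with PancVAX. The 2 sets of pools did not overlap, and the log2 difference was 3.82 ± 0.44 (edgeR with Benjamini-Hochberg, adjusted p = 0.027). In all, 66 genes, Ccl5 included, had an unadjusted p under 0.05. With DESeq2 2 genes were called.

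Ly6c2, a gate gene, was allowed in members at 1 UMI, and the counts by it are a description. Of 71 members with PancVAX 18 held 1 Ly6c2 UMI, of 75 without PancVAX 5 did. Ccl5 was detected in 15 of those 18 members, in 31 of 53 members with PancVAX and no Ly6c2 UMI (58.5%), and in 23 of 70 without PancVAX and no Ly6c2 UMI (32.9%). With members that held no Ly6c2 UMI alone, an alternative chosen after the data had been seen, Ccl5 still differed by 3.31 but was no longer called (edgeR with Benjamini-Hochberg, adjusted p = 0.789). The part of Ly6c2-carrying cells in the Ccl5 difference was not tested. The call was also lost in the Percoll libraries alone (3.61, adjusted p = 0.0559) and without any 1 of the pools of Isotype Control, anti-PD-1, anti-CTLA-4, PancVAX, or PancVAX with anti-PD-1 (3.44 to 3.85), while the direction held.

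No other gene passed the test for PancVAX, and the levels of those with the smallest p-values are given as values. Xcl1 was at 2466, 2884, 3157 and 1375 CPM in the 4 pools without PancVAX and at 1164, 1037, 815 and 1165 CPM in those with it, in the order above, and did not overlap (-1.21 ± 0.26, edgeR with Benjamini-Hochberg, adjusted p = 0.693). Tox was at 220 to 339 CPM without and 90.5 to 213 CPM with PancVAX (-0.95 ± 0.28, adjusted p = 1.00 by edgeR). Dusp2, a phosphatase of early activation (0.96), and Icos, a costimulatory receptor (1.22), did not overlap in the other direction, and Klf2 (1.04) overlapped. Of all genes, 47 (3%) had pools with and without PancVAX that did not overlap, 18 of them higher (1.15%) and 29 lower (1.85%). Xcl1, Dusp2, Icos and Tox belong to these 47 genes.

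**Figure D4:**
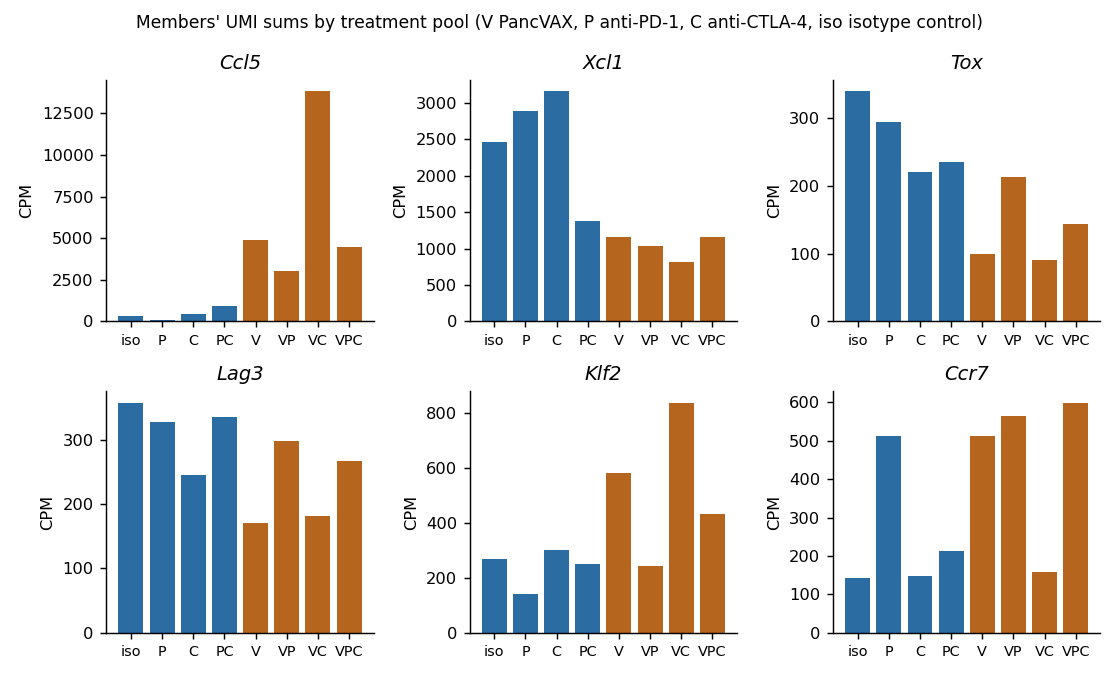
Levels in CPM (vertical axes, from 0) of 6 genes in the summed members of the 8 treatment pools (iso Isotype Control, P anti-PD-1, C anti-CTLA-4, V PancVAX; blue without and orange with PancVAX). Ccl5 is at 936 CPM or below in the blue pools and at 3053 CPM or above in the orange ones, and Xcl1 and Tox lie lower in the orange pools without passing the test.

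For anti-PD-1 edgeR called 0 of 1567 genes (0%; 39 at an unadjusted p under 0.05, 0 by DESeq2), and for anti-CTLA-4 0 (0%; 64 at an unadjusted p under 0.05, 0 by DESeq2). Klf2 differed by -0.84 and Ccr7 by 1.00 with anti-PD-1 (edgeR with Benjamini-Hochberg, adjusted p = 0.996 for both). With anti-CTLA-4 Ccl5 differed by 1.44, Ifng by -0.90 and Ly6e by 0.55 (edgeR adjusted p = 0.982 for each). Simulated counts gave the UMIs of all genes in a pool to the tested genes alone, which made these deeper than in the data. In those counts, 200 genes were changed in each of these 3 fits. A 4-fold change was recovered for 99% of them and a 2-fold change for 34.5% to 39%. Changes of 2-fold would thus often be missed with 8 to 33 members a pool. The adjustment is looser with 200 changed genes than in the data, where 0 or 1 gene was called. The 99% therefore cannot show that a 4-fold change in the data would be called.

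Members were not uniform. Xcl1 without Ccl5 was seen in 61, Ccl5 without Xcl1 in 43, both in 28 and neither in 14. With PancVAX these numbers were 20, 34, 12 and 5 of 71, and without PancVAX 41, 9, 16 and 9 of 75. Tox without Ccl5 was seen in 15 members with PancVAX and 34 without, and Ccl5 without Tox in 37 and 6. Members with PancVAX had a median of 4083 UMIs and those without 5775, so these counts were not taken at equal depth, and Ccl5 was found more often in the shallower group. A Ccl5 UMI was also found in 19.5% of macrophages, 5.80% of neutrophils and 6.47% of tumor and stroma cells, and the part of such background in these counts was not tested.

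The T cell receptor linked members to other cells. A T cell and its progeny carry the same rearranged receptor, and the junction of the beta chain (TRB), where V, D and J segments are joined, marks a clone. Receptors were sequenced for the 8 Percoll libraries only, and 78 of 86 Percoll members (90.7%) had a TRB chain. A clone was taken as all cells of a library with the same V gene and junction. The 78 members fell into 65 clones. The 7 clones that held 2 or more members are printed to show the sequences behind these links, with the junction in the 5′ to 3′ direction, and capitals mark its first codon (the conserved cysteine) and its last codon (the conserved phenylalanine).
Anti-PD-1 + Anti-CTLA-4, TRBV16 to TRBJ2-7, 4 members: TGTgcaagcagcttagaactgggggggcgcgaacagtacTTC
Anti-PD-1 + Anti-CTLA-4, TRBV13-1 to TRBJ2-4, 4 members: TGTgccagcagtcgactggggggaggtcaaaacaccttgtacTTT
Anti-CTLA-4, TRBV12-2 to TRBJ2-5, 3 members: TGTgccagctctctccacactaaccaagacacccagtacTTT
PancVAX + Anti-PD-1, TRBV5 to TRBJ2-3, 3 members: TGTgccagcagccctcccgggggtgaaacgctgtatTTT
Anti-PD-1, TRBV13-1 to TRBJ1-6, 2 members: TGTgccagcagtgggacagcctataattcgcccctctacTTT
Anti-PD-1 + Anti-CTLA-4, TRBV12-1 to TRBJ1-2, 2 members: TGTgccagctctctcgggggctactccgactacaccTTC
PancVAX + Anti-PD-1, TRBV5 to TRBJ2-5, 2 members: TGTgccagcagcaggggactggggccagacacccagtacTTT

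The TRBV16 clone of the both-antibody library held 71 cells, of which 4 were members and 5 were in the exhausted gate. The TRBV13-1 clone of the same library held 28 cells with 4 members and 4 exhausted-gate cells, and its TRBV12-1 clone held 23 cells with 2 and 2. The anti-PD-1 clone held 67 cells, with 2 members, 3 exhausted-gate and 3 Ly6c2-gate cells. The anti-CTLA-4 clone held 11 cells, with 3 members and 1 exhausted-gate cell. Both clones of PancVAX with anti-PD-1 (18 and 8 cells) held no exhausted-gate cell, and 1 of them held 1 Ly6c2-gate cell. Members of 1 clone thus stood beside exhausted-gate cells of the same clone in each of the 5 clones from libraries without PancVAX.

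Over all 78 members, 67 (85.9%, exact 95% interval 76.2% to 92.7%) belonged to an expanded clone of 2 or more cells, and 36 (46.2%) to one of 10 or more. The interval treats members as independent, although the 78 fell into 65 clones of 8 libraries. Expanded clones took 303 of 348 exhausted-gate cells (87.1%) and 562 of 1224 Ly6c2-gate cells (45.9%). The last share differed widely by library, from 3.23% to 16% in the 4 libraries without PancVAX and from 46.8% to 62.1% in the 4 with it, which held most of the Ly6c2-gate cells. Paired within the 8 libraries, the share was 81.9% in members and 85.6% in exhausted-gate cells (difference -3.69 points, exact sign-flip permutation p = 0.586, adjusted p = 0.879 over 3 tests).

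Clones that also held exhausted-gate cells contained 36 of the 78 members (46.2%, interval 34.8% to 57.8%). This interval too treats members as independent, although members of 1 clone share its links, and 17 of the 36 came from the both-antibody library. Of 348 exhausted-gate cells, 57 (16.4%) were in a clone with a member. Of all 1224 Ly6c2-gate cells, 14 (1.14%) shared a clone with exhausted-gate cells. These were 0 of 31 for Isotype Control, 3 of 73 for anti-PD-1, 4 of 69 for anti-CTLA-4 and 3 of 75 for both antibodies. With PancVAX added to each they were 0 of 201, 2 of 282, 0 of 212 and 2 of 281. Over all libraries, the links of members to Ly6c2-gate cells were fewer, 14 of 78 (17.9%). They were 0 of 8 for Isotype Control, 2 of 9 for anti-PD-1, 2 of 11 for anti-CTLA-4 and 1 of 20 for both antibodies. With PancVAX added to each they were 3 of 6, 3 of 14, 2 of 4 and 1 of 6. In those libraries they were not fewer than the links to exhausted-gate cells given below.

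By library, members linked to exhausted-gate cells were 1 of 8 for Isotype Control, 5 of 9 for anti-PD-1, 7 of 11 for anti-CTLA-4 and 17 of 20 for both antibodies, and with PancVAX added to each they were 1 of 6, 3 of 14, 1 of 4 and 1 of 6. The mean share was 54.2% without and 19.9% with PancVAX, a difference of -34.2 points (exact permutation p = 0.143, adjusted p = 0.429 over 3 tests). Without the Isotype Control library it was -48.1 points (exact permutation p = 0.0286, unadjusted). With any 1 other library left out the exact permutation p was 0.143 to 0.171. The number of exhausted-gate cells with a TRB chain, which limits how many links can be seen, was 30, 65, 55 and 71 without and 35, 36, 20 and 36 with PancVAX; its part in the difference was not tested. The expanded share was 81.8% with and 81.9% without PancVAX (exact permutation p = 1).

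The most used V genes among members were TRBV13-1 (14 cells, 17.9%), TRBV5 (13 cells, 16.7%) and TRBV16 (11 cells, 14.1%), which took 10.5%, 14.2% and 10.9% of gated CD8+ T cells with a TRB chain. Of the 65 pairs of V gene and junction of members, 4 were also seen in another library. Of all 3981 pairs, 54 were seen in more than 1 library, a smaller share. The part of clone size in this was not tested.

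**Figure D5:**
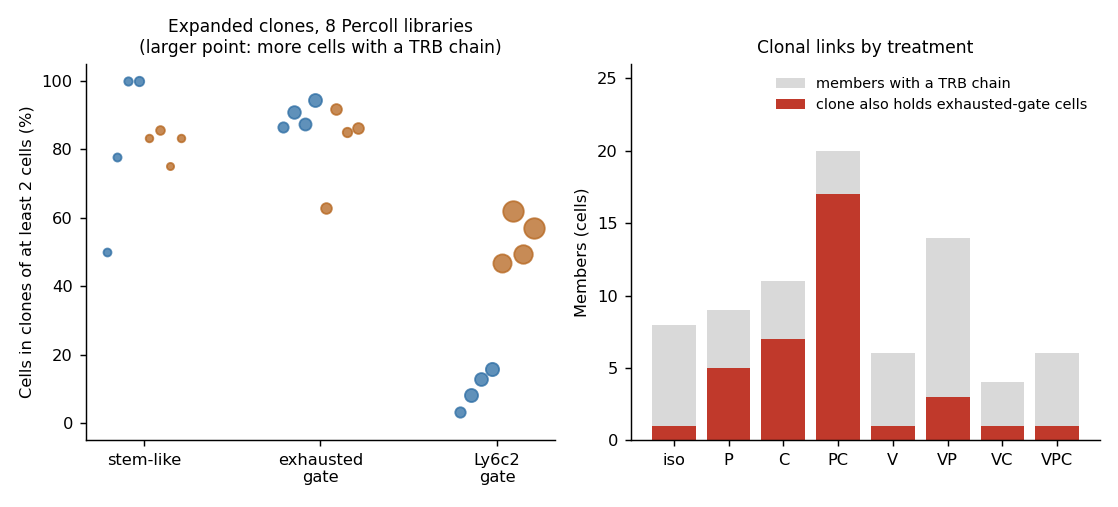
Left, percent of cells in clones of at least 2 cells (vertical axis) for the members and both reference gates, with 1 point per Percoll library (blue without and orange with PancVAX, larger for more cells with a TRB chain); right, number of members with a TRB chain in each Percoll library (gray bars) and of those whose clone also held exhausted-gate cells (red bars). The red bar takes 17 of 20 members with both antibodies and 1 of 6 when PancVAX was added to them.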

How the data were processed

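The deposited matrix holds raw UMI counts per gene and barcode, which the authors made from 16 libraries of a 5′ droplet kit with Cell Ranger 4.0.0, with mm10 among the builds of the submitters' processing notes. The authors also deposited filtered receptor contigs of the 8 Percoll libraries, with a count of UMIs per contig, and in each barcode the TRB contig with most UMIs was used. The limits of 200 to 3000 genes and 10000 UMIs and the removal of hemoglobin-positive cells in the study's methods had not been applied to the matrix and were tried as an alternative.

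Members and gene lists were chosen with earlier results of these data known. Members were found by the stated gate; UMIs were summed per gate and library or pool, and genes passing filterByExpr were tested with edgeR 4.0.16 in R 4.3.3 (quasi-likelihood, TMM scaling, Benjamini-Hochberg adjustment over all genes tested, gate genes left out). CPM are UMI counts of a gene scaled to the TMM-corrected total of the tested genes, and an SE is the log2 difference divided by the square root of F. A gene was called at an adjusted p under 0.05 and a log2 difference beyond 0.5. Genes were named if they belonged to a fixed list or to the 8 largest called rises or falls with an average of 50 CPM or more. Libraries or pools entered a comparison between gates with at least 10 cells of both. A planned comparison between gates is not reported here. A direct comparison of PancVAX with Isotype Control, and one of both antibodies added to PancVAX, were not made, because no library of PancVAX alone or Isotype Control held 10 members. Shares were compared by exact permutation of pools or libraries, those of PancVAX over 70 splits and those of an antibody within PancVAX arms over 36. DESeq2 1.42.0, filters, thinning, left-out pools, preparation as a covariate and other gates were alternatives. The fits were tested on simulated counts with 200 changed genes. Python 3.11.15, numpy 2.4.6, pandas 2.3.3 and scipy 1.17.1 were used. Precision is limited by the 0 to 20 members a library.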

Additional observations from a re-analysis of the deposited data

Results flagged for a closer look

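The level in members of the genes named for a comparison, and the shares by pool or library, were checked for 1 sample standing apart from its group; 88 groups were checked and 10 stood apart, where chance gives about 1 in 20. In the whole tumor library of PancVAX with anti-PD-1, members had Gzma at 584 CPM (0 to 200 CPM in the other 5 libraries), Ifitm1 at 1247 CPM (26.7 to 341) and Id2 at 160 CPM (388 to 503). In the Percoll library of the same treatment, Gzmd was at 51.1 CPM (0 in the others) and Gzme at 59.6 CPM (0 to 11.4). Entpd1 was at 52.4 CPM in the anti-CTLA-4 Percoll library (11.4 to 26.7) and Cxcr6 at 347 CPM in the whole tumor library of both antibodies (32.7 to 140). Sidt1 at 46.0 CPM (0 to 12.8) and Fosl2 at 567 CPM (241 to 333) stood apart in the anti-PD-1 Percoll library. Among pools, Ccr7 was at 511 CPM with PancVAX alone among the pools without anti-PD-1 (143 to 158). No explanation was tested for these values.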

How the results depend on the processing

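Thinning before gating also loosened the upper limits of the gate, that on Ly6c2 among them. The PancVAX difference in share of gated CD8+ T cells was 0.214 points with cells thinned to 1000 UMIs, 0.0603 at 2000 UMIs, 1.68 without the Ly6c2 limit and -1.05 in Percoll libraries alone. Among Pdcd1+ cells it was 1.19 at 1000 UMIs, 0.502 at 2000 UMIs, 5.02 without the Ly6c2 limit, 0.339 in whole tumor alone and 0.0645 without cells holding UMIs of other types, and per 100 exhausted-gate cells it was 53.6 at 1000 UMIs, 19.5 at 2000 UMIs, 0.344 with 2 or more UMIs of Pdcd1 and Tcf7 and 68.3 without the Ly6c2 limit. Anti-PD-1 gave -0.163 in Percoll alone, and anti-CTLA-4 gave -0.0206 at 1000 UMIs, -0.0442 with 2 or more UMIs of Pdcd1 and Tcf7, and -0.196 in Percoll alone. Leaving out 1 pool at a time gave -0.761 to -0.314 for PancVAX (largest without Isotype Control), 0.0445 to 0.554 for anti-PD-1, -0.172 (without both antibodies) to 0.337 for anti-CTLA-4, -0.507 to 0.0634 (without both antibodies) among Pdcd1+ cells and 8.30 to 14.7 (without both antibodies) per 100 exhausted-gate cells. For receptors, the PancVAX difference in expanded share was 11.4 points with clones set by TRA and TRB and -10.7 to 5.92 with 1 library left out (2.18 without PancVAX with anti-CTLA-4); the link to exhausted-gate cells ranged from -48.1 to -24.0, and the expanded share against exhausted-gate cells from -7.15 to 1.02 (without Isotype Control), and it was -10.3 with a limit of 3 cells a clone. A limit of 3 cells a clone has no meaning for the link and was not run.

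Called genes against exhausted-gate cells numbered 289 without a filter on low counts, 43 (of 801 tested) without mixed cells, those with 2 or more UMIs of other cell types, 160 with all cells of 8 pools (added after the data had been seen) and 41 to 75 with 1 library left out. Against Ly6c2-gate cells there were 432 without a filter, 22 (of 689 tested) without mixed cells, 236 with 8 pools and 80 to 158 with 1 library left out. For PancVAX there were 2 with DESeq2, 30 without a filter, 3 without mixed cells, 0 in Percoll alone, 0 in members without a Ly6c2 UMI and 0 to 2 with 1 pool left out. For anti-PD-1 there were 48 without a filter and 0 with any pool left out, for anti-CTLA-4 40 without a filter, 1 within the study's limits and 0 to 1. The cause of these moves was not tested. With preparation as the replicate block in 15 libraries, 1, 0 and 0 genes were called for the vaccine, anti-PD-1 and anti-CTLA-4. Among the named genes followed through these alternatives only Tox against exhausted-gate cells, which was not called (0.08), turned its direction, to -0.12 without a filter, -0.21 with 8 pools and -0.035 to 0.19 with 1 library left out (-0.035 without the both-antibody Percoll library). The planned direct comparisons of PancVAX with Isotype Control and of both antibodies added to PancVAX were not run. Depth limits the results: members numbered 8 to 33 a pool, 98 of 146 rest on 1 Tcf7 UMI, and a member that lost that UMI would not be seen.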

Other observations

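The links between members and exhausted-gate cells were also read by the genes members expressed, a split made after the values had been seen and with no test. Of 60 members with an Xcl1 UMI and a TRB chain, 30 (50%) were in a clone that also held exhausted-gate cells, and of 18 without Xcl1 6 were (33.3%). For Tox the numbers were 26 of 48 with it (54.2%) and 10 of 30 without it (33.3%). For Ccl5 they were 12 of 32 with it (37.5%) and 24 of 46 without it (52.2%). Members of 1 library and clone are not independent, and detection depends on the UMIs of a cell.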
